A study of Drosophila melanogaster with 18 samples.

Results

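The heat shock protein genes were followed through the 4 peak lists of the series as a set of 10: Hsp70Aa, Hsp70Ab, Hsp70Ba, Hsp70Bb, Hsp22, Hsp23, Hsp26, Hsp27, Hsp83 and Hsp68, out of 18277 annotated genes. A gene was given a peak when the peak overlapped its gene body or lay within 2 kb of it in the dm6 assembly. The series measured binding of GAGA factor (GAF) and acetylation of histone H4 at lysine 8 (H4K8ac) by ChIP-seq in yw Drosophila melanogaster embryos labelled as 1 to 2.5 h after egg laying, for which the study's methods give a later start of the collection. Embryos stained for phosphorylated histone H3 were sorted into mitotic and interphase pools of 1000 embryos, which gave 2 mitosis and 3 interphase samples for GAF and 2 mitosis and 2 interphase samples for H4K8ac. Each of these had its own input, 18 samples in all. All pools were whole wild-type embryos and the labels name no heat shock, so the values describe these genes across every cell of the embryo at the onset of zygotic transcription.

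The deposited lists hold peak positions only. Replicates were averaged before peaks were called, so a peak has no height and no spread over samples, and every value below is a position, a length or a count, without a test. The GAF lists hold 1839 mitotic and 4970 interphase peaks, and the H4K8ac lists 5405 mitotic and 5806 interphase peaks. Of these, 6 mitotic and 8 interphase GAF peaks, and 6 mitotic and 7 interphase H4K8ac peaks, met the rule for at least 1 of the 10 genes. The lists hold no read counts, so the depth behind each peak is not known from them.

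Many heat shock genes are silent or weakly transcribed at normal temperature. They are switched on within minutes of heat stress, when the heat shock factor trimer binds heat shock elements in their promoters. GAF, encoded by Trl, binds GAGAG repeats at several of these promoters before any stress. There it is known to keep the promoter free of nucleosomes and to let RNA polymerase II pause just downstream of the transcription start site (TSS), and the Hsp70 and Hsp26 promoters are the textbook cases. The products are chaperones: Hsp70 and Hsp68 belong to the Hsp70 family, Hsp83 is the fly Hsp90, and Hsp22, Hsp23, Hsp26 and Hsp27 are small heat shock proteins with an alpha-crystallin domain. H4K8ac is a mark of active or accessible chromatin.

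The promoters of the 4 Hsp70 genes and of Hsp68 are shown because they carried opposite GAF results although all are heat inducible. Each is the 250 bases before the TSS on the gene's strand, from the RefSeq copy of dm6. Capitals mark GAGAG on either strand (printed as GAGAG or CTCTC, overlapping matches joined) and GAANNTTC, the core of a heat shock element, which reads the same on both strands. The first is Hsp70Aa (chr3R:11956545-11956794, minus strand), then Hsp70Ab (chr3R:11958285-11958534, plus strand), Hsp70Ba (chr3R:12467777-12468026, minus strand), Hsp70Bb (chr3R:12505543-12505792, plus strand) and Hsp68 (chr3R:24057311-24057560, minus strand).
Hsp70Aa: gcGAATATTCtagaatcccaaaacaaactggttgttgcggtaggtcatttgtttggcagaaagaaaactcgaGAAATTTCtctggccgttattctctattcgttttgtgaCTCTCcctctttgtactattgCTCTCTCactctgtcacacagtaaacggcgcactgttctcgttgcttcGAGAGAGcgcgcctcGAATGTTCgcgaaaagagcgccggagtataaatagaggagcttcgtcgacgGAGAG
Hsp70Ab: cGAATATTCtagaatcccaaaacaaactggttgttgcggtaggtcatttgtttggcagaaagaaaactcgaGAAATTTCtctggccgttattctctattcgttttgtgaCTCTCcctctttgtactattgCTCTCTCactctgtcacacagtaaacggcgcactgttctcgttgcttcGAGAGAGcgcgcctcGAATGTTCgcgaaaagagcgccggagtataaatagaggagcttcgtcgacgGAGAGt
Hsp70Ba: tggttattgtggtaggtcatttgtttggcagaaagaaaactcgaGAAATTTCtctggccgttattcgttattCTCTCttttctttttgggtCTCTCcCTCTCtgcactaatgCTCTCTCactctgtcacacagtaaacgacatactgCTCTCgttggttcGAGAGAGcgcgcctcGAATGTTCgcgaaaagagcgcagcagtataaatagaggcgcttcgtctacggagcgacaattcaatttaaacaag
Hsp70Bb: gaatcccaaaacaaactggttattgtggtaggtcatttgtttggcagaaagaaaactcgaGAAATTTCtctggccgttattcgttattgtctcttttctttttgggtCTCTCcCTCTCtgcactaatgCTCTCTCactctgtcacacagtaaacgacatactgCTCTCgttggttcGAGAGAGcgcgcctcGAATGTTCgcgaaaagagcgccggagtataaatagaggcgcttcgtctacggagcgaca
Hsp68: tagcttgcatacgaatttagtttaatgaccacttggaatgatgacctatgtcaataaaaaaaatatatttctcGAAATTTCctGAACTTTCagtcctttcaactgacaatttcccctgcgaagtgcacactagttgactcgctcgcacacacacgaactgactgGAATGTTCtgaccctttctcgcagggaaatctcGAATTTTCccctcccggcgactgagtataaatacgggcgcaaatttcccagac

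The small heat shock genes are shown by the pieces of sequence under their own GAF peaks: the 250 bases before the outer TSS of Hsp26 (chr3L:9377428-9377677, minus strand), the whole 100 bp interphase peak upstream of Hsp27 (chr3L:9383702-9383801, plus strand), and the 30 bases of the Hsp22 peak richest in GAGAG (chr3L:9373658-9373687, plus strand). Capitals mark the same motifs.
Hsp26: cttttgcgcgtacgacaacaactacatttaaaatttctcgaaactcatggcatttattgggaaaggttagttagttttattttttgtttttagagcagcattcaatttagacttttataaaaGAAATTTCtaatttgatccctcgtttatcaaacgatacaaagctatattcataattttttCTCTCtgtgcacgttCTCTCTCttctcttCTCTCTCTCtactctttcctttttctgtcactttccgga
Hsp27: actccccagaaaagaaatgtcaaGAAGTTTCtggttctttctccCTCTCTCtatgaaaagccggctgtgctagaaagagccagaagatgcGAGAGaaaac
Hsp22: ttCTCTCTCccaCTCTCtaatggagCTCTC

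GAF bound 5 of the 10 genes in mitosis and 8 of 10 in interphase. The 5 mitotic genes were the 4 Hsp70 genes and Hsp22, and interphase added Hsp23, Hsp26 and Hsp27. Over all annotated genes, 10.9% had a mitotic GAF peak on the gene or within 2 kb, and 25.0% an interphase one. A mitotically retained peak, an interphase peak that overlaps a mitotic peak by at least 1 bp, was found at the same 5 genes, against 11.1% of all genes. Among genes with any interphase GAF peak in reach, 5 of 8 heat shock genes (62.5%) and 2022 of 4565 genes (44.3%) had a retained one. Hsp83 and Hsp68 had no GAF peak of either stage.

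Counted at the promoter, within 100 bp of any annotated TSS of the gene, 5 of 10 genes had a mitotic GAF peak, against 4.03% of all genes. In interphase it was 6 of 10, the same 5 genes and Hsp26, against 10% of all genes. Of the genes with an interphase GAF peak at the promoter, 5 of 6 heat shock genes (83.3%) also had a mitotic one there, against 724 of 1833 genes (39.5%). The peaks themselves lay mostly on start sites: 5 of the 6 mitotic and 7 of the 8 interphase peaks covered a TSS, against 28.4% of all mitotic and 32.2% of all interphase GAF peaks. The shares over all peaks include peaks far from any gene, whereas the heat shock peaks were taken for lying on or near a gene, so part of this difference is set by the choice. These genes are not independent counts, because the Hsp70 copies sit in 2 clusters and neighbours share peaks within 2 kb.

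**Figure D1:**
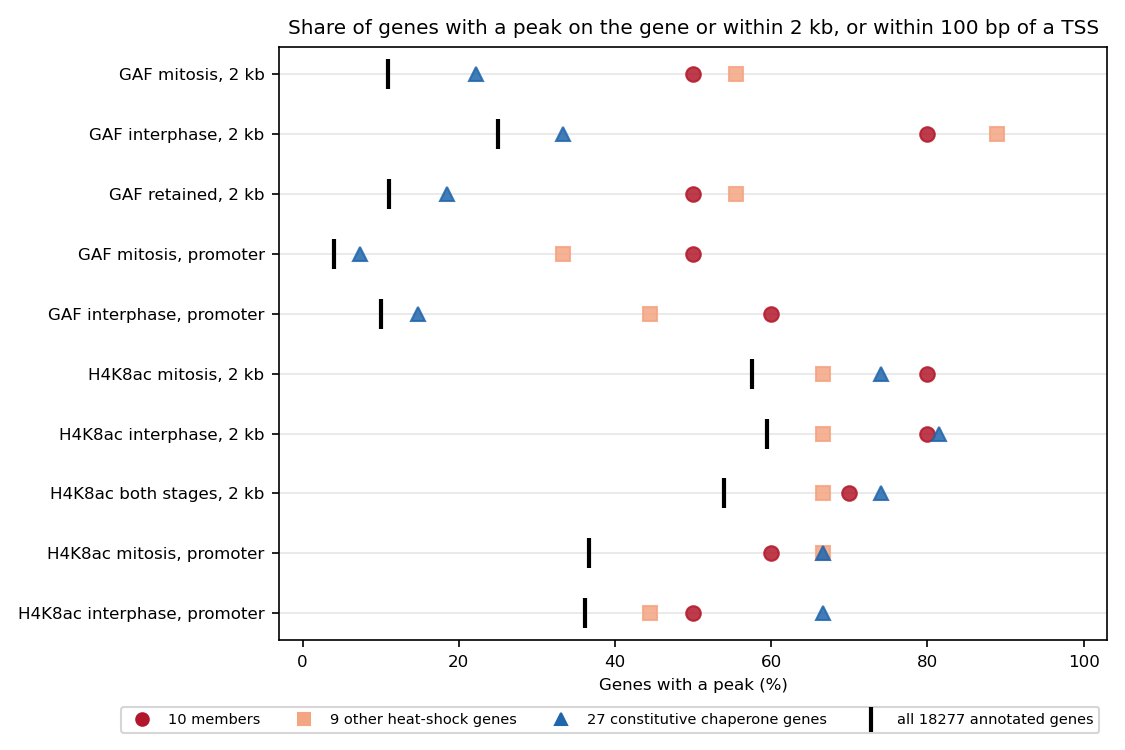
Share of genes with a peak (x axis, %) by list and rule (rows), for the 10 heat shock protein genes (circles), 9 other heat-shock genes (squares), 27 constitutive chaperone genes (triangles) and all 18277 annotated genes (black bars). The circles stand far from the bars in the GAF rows, 50% against 4.03% at mitotic promoters, and nearer to them in the H4K8ac rows, 80% against 57.5% within 2 kb in mitosis.

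Hsp70Aa (FBgn0013275, chr3R:11954163-11956544, minus strand) carried a mitotic GAF peak of 250 bp from -257 to -8 bp of its TSS, counted along the gene with the TSS at 0. The interphase peak was 650 bp long, from -407 to 242 bp. The mitotic peak was thus the narrower of the pair and ended 8 bp short of the TSS, and it held 3 GAGAG matches against 4 in the interphase peak. The fourth match starts at -5 bp, between the end of the mitotic peak and the TSS. Peak bounds fall on bins of 50 bp, so neither the 8 bp nor the missing match is resolved by the list.

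Hsp70Ab (FBgn0013276, chr3R:11958535-11960909, plus strand) lies head to head with Hsp70Aa. Its mitotic peak was 350 bp long, from -233 to 116 bp, and its interphase peak 650 bp long, from -383 to 266 bp, with 4 GAGAG matches in each. The centre was at -59 bp in mitosis and in interphase alike. The 250 bases before the TSS of Hsp70Ab and of Hsp70Aa were identical over all 249 aligned positions, the annotated start sites being offset by 1 base.

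Hsp70Ba (FBgn0013277, chr3R:12465453-12467776, minus strand) had the longest mitotic peak of the 10 genes, 550 bp from -425 to 124 bp. Its interphase peak measured 850 bp, from -575 to 274 bp. Each held 6 GAGAG matches, the most of any Hsp70 copy. Hsp70Bb (FBgn0013278, chr3R:12505793-12508139, plus strand) had a mitotic peak of 450 bp from -291 to 158 bp and an interphase peak of 650 bp from -391 to 258 bp, with 5 matches in each. A second pair downstream of Hsp70Bb, 350 bp in mitosis and 500 bp in interphase, covered the TSS of the next copy, Hsp70Bc.

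Every mitotic peak at an Hsp70 promoter was nested in its interphase partner and took 38.5 to 70.0% of its length. Over all 6 retained peaks of the set the median was 59.3%, and the centres of the 2 stages coincided in 4 of 6 and differed by 50 bp at most. Among all 1404 interphase peaks with exactly 1 mitotic partner, the mitotic peak was shorter in 98.0%, its median length was 41.7% of the interphase peak, and the centres lay within 50 bp in 78.8%. Narrower mitotic peaks were therefore the rule over the whole list, and the shift of centre at the heat shock genes was within the usual range.

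**Figure D2:**
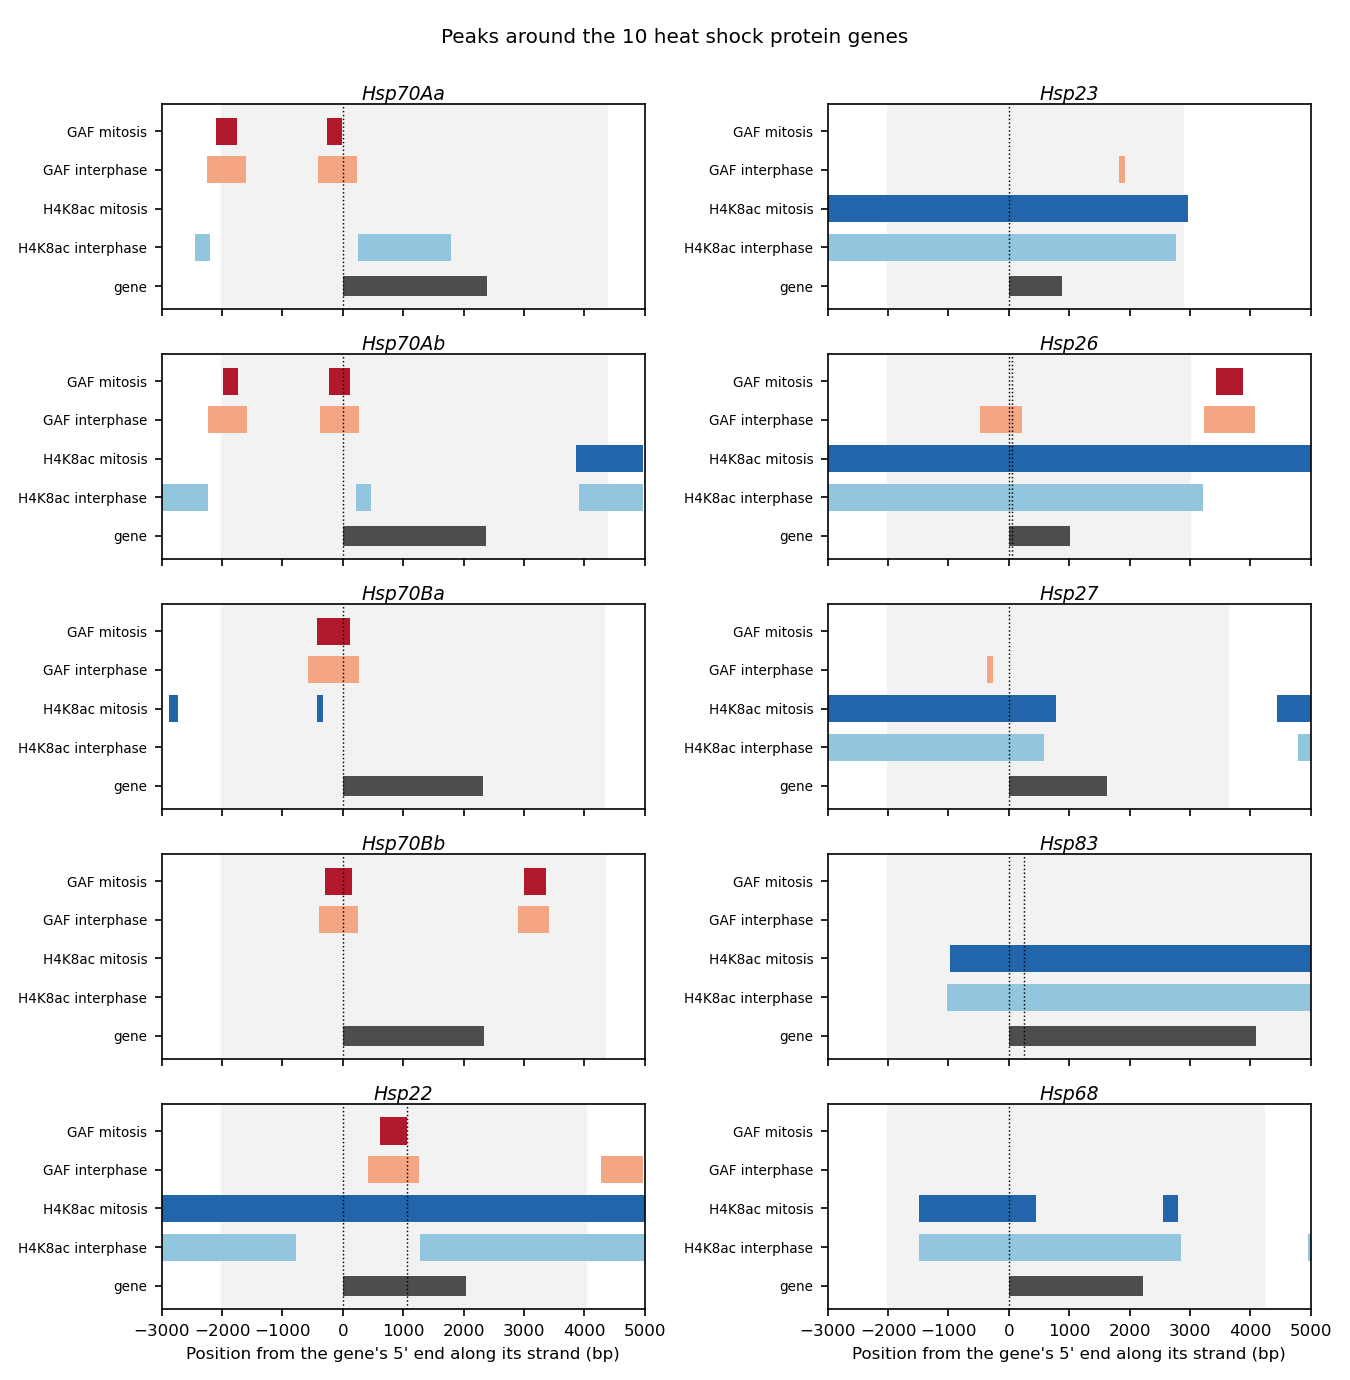
Peaks around each of the 10 genes, drawn along the gene's strand by distance from its 5' end (x axis, bp). Rows are GAF mitosis, GAF interphase, H4K8ac mitosis and H4K8ac interphase, the dark bar is the gene, dotted lines are annotated TSSs and grey shading is the gene with 2 kb on each side. GAF boxes sit on or within 8 bp of the start sites of the Hsp70 genes, with no H4K8ac box within 100 bp of these sites. An interphase H4K8ac box covers 65.1% of the Hsp70Aa body. Hsp83 and Hsp68 have H4K8ac and no GAF.

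The small heat shock genes of cytological region 67B behaved unequally. Hsp22 (FBgn0001223, chr3L:9372931-9374964, plus strand) has 2 annotated TSSs, 9372931 and 9373997. Its mitotic GAF peak of 450 bp ran from -445 to 4 bp of the inner one, and its interphase peak of 850 bp from -645 to 204 bp, both centred at -221 bp. Each held 9 GAGAG matches, the highest number among the 10 genes, and all 450 bp of the mitotic peak lie in the 5' UTR of the longer transcript. The outer TSS had no GAF peak within 100 bp. The CG4456 gene, also known as Hsp67Bb, shares this stretch, and its own TSSs lay 621 bp or more from the mitotic peak.

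Hsp26 (FBgn0001225, chr3L:9376418-9377427, minus strand) had an interphase GAF peak of 700 bp with 5 GAGAG matches, from -474 to 225 bp of its outer TSS, and no peak in the mitotic list within 2 kb. The peak covers 374 bp of intergenic sequence, 226 bp of the Hsp26 5' UTR and 100 bp of the 3' UTR of Hsp67Ba. The call depends on the list: the deposited list of retained GAF peaks holds an 800 bp peak here. Only 38 of the 2362 peaks of that list have the same bounds as a peak of the interphase list. With that list 6 of the 10 genes were retained. Of the 138 interphase peaks that are also 700 bp long, 80.4% overlapped a mitotic peak.

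Hsp27 (FBgn0001226, chr3L:9384063-9385694, plus strand) and Hsp23 (FBgn0001224, chr3L:9381882-9382765, plus strand) shared 1 interphase GAF peak of 100 bp, the shortest length in the list. It ends 262 bp before the Hsp27 TSS and starts 936 bp after the end of Hsp23. It held 2 GAGAG matches and 1 GAANNTTC match, and no mitotic peak. Among the 343 interphase peaks of 100 bp, 6.12% overlapped a mitotic peak. Among peaks of at least 400 bp, 6 genes kept an interphase GAF peak and 3 a mitotic one, since the mitotic peaks of Hsp70Aa and Hsp70Ab are shorter than that as well.

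Hsp83 (FBgn0001233, chr3L:3192969-3197059, plus strand) and Hsp68 (FBgn0001230, chr3R:24055080-24057310, minus strand) lay outside the GAF lists. The nearest mitotic GAF peak was 29042 bp from Hsp83 and 89628 bp from Hsp68, and the nearest interphase peak was 28842 bp from Hsp83 and 6728 bp from Hsp68. Hsp83 is known to be strongly transcribed without stress, and Hsp68 is heat inducible like the Hsp70 genes. The absence of a peak means a signal below the calling threshold of the list, not an absence of GAF.

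The GAGAG number of the heat shock peaks was ordinary for their length. The 8 interphase peaks held 5.0 ± 2.0 matches (SD over peaks), against 4.32 ± 4.11 in all 4970 interphase peaks, 6.37 ± 5.21 in the 1552 retained ones and 3.39 ± 3.07 in the 3418 found in interphase only. Peaks as long as those of Hsp70Aa, Hsp70Ab and Hsp70Bb (650 bp) held 5.37 ± 1.83 matches (n = 183), against 4, 4 and 5 at these genes. At 850 bp the mean was 6.63 ± 2.82 (n = 75), against 9 at Hsp22 and 6 at Hsp70Ba, and 22.7% of the peaks of that length had as many matches as Hsp22. The 5 matches of Hsp26 compare with 5.59 ± 2.56 (n = 138) and the 2 of Hsp27 with 2.0 ± 1.3 (n = 343). Every one of these genes lay within 1 SD of the mean of its length class.

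Short peaks were seldom retained over the whole list. Of the interphase peaks of 500 bp, the length at Hsp70Bc, 48.7% overlapped a mitotic peak, and of those of 650 and 850 bp 78.7% and 76.0%. The 6 retained heat shock peaks were 500 to 850 bp long, and the 2 that were not retained had 700 bp (Hsp26) and 100 bp (Hsp27). The number of GAGAG matches did not separate them, since Hsp26 had 5 and the retained Hsp70Aa and Hsp70Ab had 4.

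**Figure D3:**
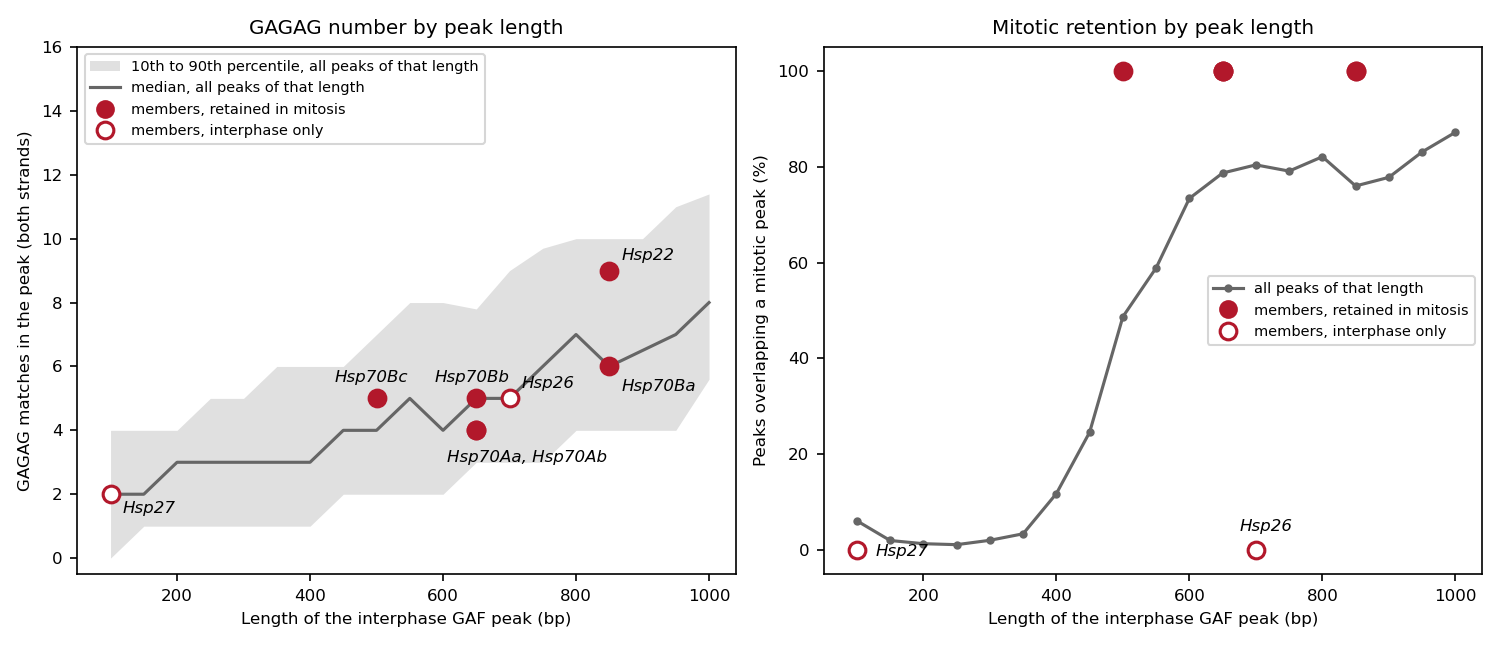
Left, GAGAG matches (y axis) against the length of the interphase GAF peak (x axis, bp); the line is the median and the band the 10th to 90th percentile of all peaks of that length, shown for lengths with at least 20 peaks. Right, the share of all peaks of each length that overlap a mitotic peak (line, %), with the heat shock peaks placed at 100 if retained (filled) and at 0 if not (open). Hsp22 with 9 matches is above the median of its length, and Hsp26 is the only open circle at a length where 80.4% of peaks were retained.

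GAGAG matches before the TSS went with interphase GAF peaks at the promoter, but did not separate retained from unretained ones. In the windows of 250 bases there were 4 GAGAG matches in Hsp70Aa and Hsp70Ab, 6 in Hsp70Ba, 5 in Hsp70Bb, 3 before the inner TSS of Hsp22, 3 before each TSS of Hsp26 and 1 in Hsp23. Hsp27, Hsp83 and Hsp68 had 0. GAGAG occurred in 29.1% of all promoters. The 6 genes with 3 or more matches were the 6 with an interphase GAF peak at the promoter. With 1 or more matches there were 7 genes, Hsp23 being the one without such a peak. Over all 13968 protein-coding genes, 931 (6.67%) had 3 or more matches, and 83.4% of these had an interphase GAF peak at the promoter. Among protein-coding genes with 1 or more matches it was 31.3%. In the Hsp70 promoters the matches ran from -178 to -5 bp.

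Heat shock element cores were spread differently. GAANNTTC occurred in 7.66% of 19276 promoters. Counted per gene it was found in a promoter of 9 of the 10 genes, Hsp27 being without one in its window, against 9.96% of protein-coding genes. Hsp68 had 4, at -177, -167, -86 and -53 bp, Hsp70Aa and Hsp70Ab had 3, and Hsp70Ba and Hsp70Bb had 2. Only 3 protein-coding genes had 3 or more, and all 3 were members: Hsp70Aa, Hsp70Ab and Hsp68. TATAAA, the TATA box sequence, was counted on either strand anywhere in the window, so a match need not be a TATA box. It was found for all 10 genes, against 48.6% of protein-coding genes and 39.6% of promoters, most often starting between -33 and -27 bp. At Hsp70Ba it started at -49 bp, against -33 to -30 bp in the other Hsp70 genes. Motif positions counted from the annotated TSS of Hsp70Ba are thus not aligned with those of the other copies. Hsp68 thus had heat shock element cores and a TATAAA match like the Hsp70 genes. Its 250 bases aligned to theirs with 68.7 to 71.5% identity and held no GAGAG.

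**Figure D4:**
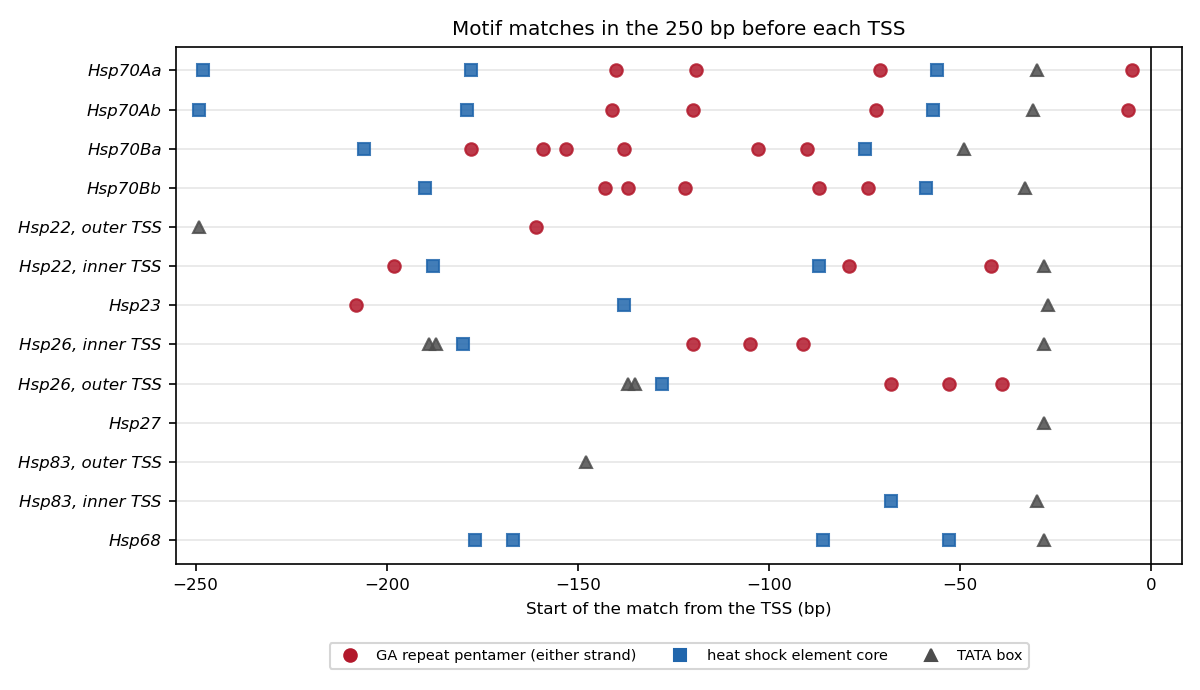
Start of each motif match (x axis, bp before the TSS) in the 250 bp window of every annotated TSS of the 10 genes (rows; for genes with 2 TSSs, outer is the one farther upstream). Circles mark GAGAG and triangles TATAAA, each on either strand, and squares mark the heat shock element core. Circles fill the Hsp70, Hsp26 and inner Hsp22 rows and are missing from the Hsp27, Hsp83 and Hsp68 rows, where Hsp68 has 4 squares.

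The Hsp70 copies are close to identical, which bears on every value given for them. Between Hsp70Aa and Hsp70Ab 2374 of 2375 aligned transcribed bases matched, and between Hsp70Ba and Hsp70Bb 2318 of 2324. The windows of 250 bases before Hsp70Bb, Hsp70Bbb and Hsp70Bc were the same in all 250 positions. Reads in the study were 75 bases long, and the share of 75-base windows that occur more than once in the genome was 100%, 72.8%, 39.7% and 98.7% in the mitotic peaks of Hsp70Aa, Hsp70Ab, Hsp70Ba and Hsp70Bb. In their interphase peaks it was 70.3%, 74.7%, 29.3% and 81.8%. It was 0% in the GAF peaks of Hsp22, Hsp26 and Hsp27, and 10.8% of all interphase GAF peaks had more than 50% of such windows. A single read within such a window cannot tell the copies apart. Reads were sequenced in pairs, and a mate outside the window could place its pair, which these shares do not take into account. How reads with several matches were placed is not given in the sources used here. Counting only peaks with at most 10% of repeated windows, an alternative chosen after seeing the data, left 1 gene with a mitotic or retained GAF peak (Hsp22) and 4 with an interphase one.

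H4K8ac lay on or near 8 of the 10 genes in mitosis and 8 of 10 in interphase, against 57.5% and 59.5% of all genes. Peaks of both stages were found for 7 genes, against 54% of all genes. At the promoter, 6 genes had a mitotic and 5 an interphase H4K8ac peak, against 36.7% and 36.2% of all genes. These shares lay nearer to the background than those of GAF. The counts are not independent, because 1 mitotic peak of 18700 bp served Hsp22, Hsp23, Hsp26 and Hsp27. Hsp70Ab was counted in mitosis only through a peak 1492 bp from the gene. Hsp70Ba was counted there only through a peak of 100 bp, the shortest length in that list. In interphase Hsp70Aa was counted only through a peak made up wholly of repeated windows. The 4 Hsp70 genes had no H4K8ac peak within 100 bp of their TSS in either stage, and the other 6 genes all had one in at least 1 stage.

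H4K8ac peaks in these lists are joined stretches: no 2 peaks of one list lie closer than 2000 bp, so a peak can bridge up to that distance without signal. Coverage of a gene below is coverage by such stretches. The GAF lists have a smallest gap of 200 bp.

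Hsp70Aa had no mitotic H4K8ac peak within 2 kb, and in interphase a peak of 1550 bp covered 65.1% of its body. That peak ended where the interphase GAF peak began, with no shared base. Hsp70Ab had an interphase peak of 250 bp in its body, which overlapped its GAF peak by 50 bp, and no mitotic one there. A further peak pair beyond its 3' end, 1100 bp in mitosis and 1050 bp in interphase, touched aurA and CG3281. All 75-base windows of the 2 interphase peaks inside Hsp70Aa and Hsp70Ab occur elsewhere in the genome.

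Hsp70Ba had a mitotic H4K8ac peak of 100 bp, which lay wholly inside its mitotic GAF peak, and no interphase peak within 6925 bp of its TSS. Hsp70Bb had none within 2 kb in either stage; the nearest was 6141 bp from the gene in mitosis and 27641 bp in interphase. Among all 724 genes with a GAF peak at the promoter in both stages, 53.9% had a mitotic and 46.7% an interphase H4K8ac peak at the promoter, and 41.2% had neither. Of the 5 heat shock genes of that class, 1 had a mitotic one (Hsp22), none an interphase one, and 4 had neither. Those 4 are the near-identical Hsp70 genes, so they are not independent counts. Hsp22 was counted through a joined peak of 18700 bp, which can bridge stretches without signal.

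The 67B cluster lay in broad acetylated domains. In mitosis 1 H4K8ac peak of 18700 bp (chr3L:9366152-9384851) held Hsp22, Hsp26 and Hsp23 whole and reached 789 bp into Hsp27, and only 1.31% of mitotic H4K8ac peaks were as long. In interphase the same stretch was split into peaks of 6550 and 10450 bp, separated by 2050 bp (chr3L:9372152-9374201). That interval contains both TSSs of Hsp22 and its whole interphase GAF peak, which ends on the base before the second H4K8ac peak starts. Hsp22 was thus covered over 100% of its length in mitosis and 37.5% in interphase, while Hsp23 and Hsp26 were covered over 100% in both stages. The interval is 50 bp longer than the distance below which stretches were joined, so whether mitotic signal was also low there cannot be seen in the list.

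**Figure D5:**
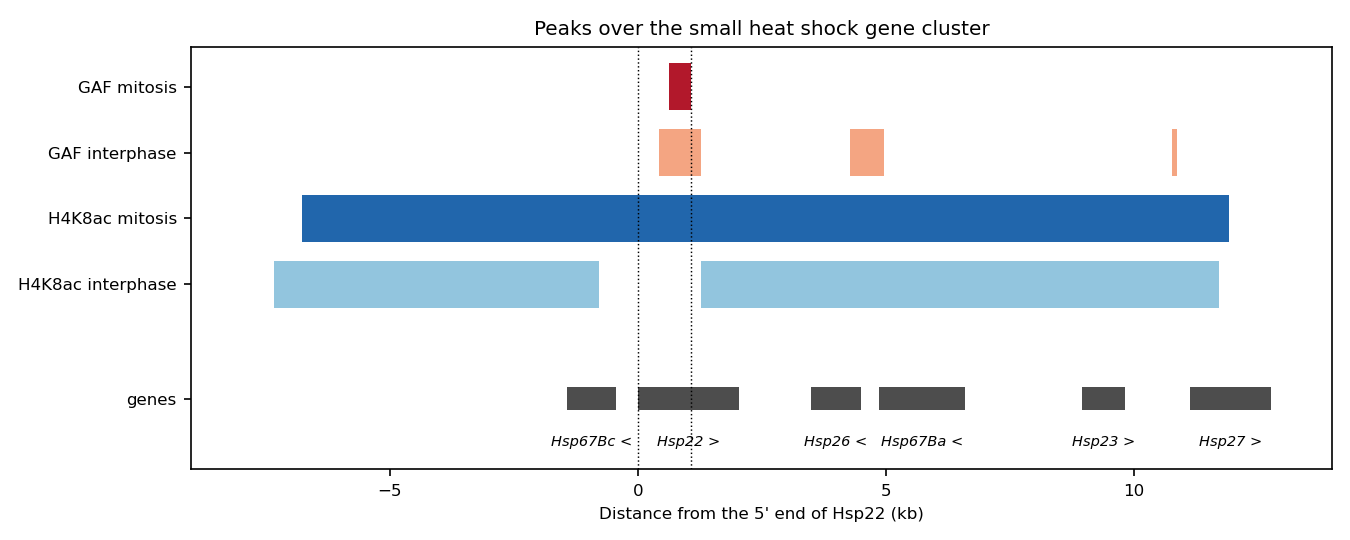
Peaks over the small heat shock gene cluster, by distance from the 5' end of Hsp22 (x axis, kb); rows are the 4 lists, dark bars the genes with their direction, and dotted lines the 2 TSSs of Hsp22. CG4456, which shares the Hsp22 stretch, is not drawn. The mitotic H4K8ac peak runs in 1 piece of 18700 bp and ends inside Hsp27, and the interphase domain is open over the Hsp22 GAF peak for 2050 bp.

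Hsp27 was covered by H4K8ac over 48.3% of its length in mitosis and 36.1% in interphase, in each case from its 5' end. Hsp83 was covered whole in both stages by peaks of 7750 bp in mitosis and 8000 bp in interphase. Hsp68 was covered over 20.6% of its length in mitosis, by a 1950 bp peak across its TSS, and over 100% in interphase by a peak of 4350 bp. Here the mitotic peaks on the 2 sides of the gene body were 2100 bp apart, again just beyond the joining distance. Both genes without GAF therefore had H4K8ac at the promoter in both stages, as had 30.6% of the 13683 genes without a GAF peak.

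The 9 further heat-shock genes were taken as a list and not by their peaks. A mitotic GAF peak lay within 2 kb of 5 of the 9 and an interphase one of 8, and at the promoter the counts were 3 and 4. They are not separate from the counts above: Hsp67Bb (CG4456) and Hsp67Bc were counted through the Hsp22 peaks, Hsp67Ba through the Hsp26 peak and Hsp70Bc through peaks already counted for Hsp70Bb. Hsp70Bbb and Hsp70Bc, the remaining Hsp70 copies, had mitotic peaks of 300 and 350 bp and interphase peaks of 550 and 500 bp on the TSS, with 5 GAGAG matches each and no H4K8ac peak. The gene stv, which encodes a BAG-domain co-chaperone of Hsp70, had a mitotic peak of 400 bp with 11 matches and an interphase peak of 750 bp with 12, and no H4K8ac peak within 2 kb. The non-coding RNA gene lncRNA:Hsromega had an interphase peak of 700 bp with 3 matches on its TSS and no mitotic one, and overlapped H4K8ac in both stages. DnaJ-1, an Hsp40, had no GAF peak and had H4K8ac at the promoter in both stages. Hsf, the gene of the heat shock factor itself, had 2 interphase GAF peaks of 200 and 100 bp, both away from its TSS.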

How the data were processed

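The study assayed GAF and H4K8ac by ChIP-seq in sorted mitotic and interphase embryos. Per the study's methods, paired reads of 75 bases were trimmed with cutadapt 1.16 and aligned to dm6 with Bowtie2. They were turned into input-subtracted, depth-scaled 50 bp profiles and averaged over replicates. The authors deposited BED lists of the stretches above a threshold (100 for GAF, 22 for H4K8ac, minimum run 50 bp, maximum gap 200 bp). These other values are start and end positions only, with no score. The smallest gap in the H4K8ac lists is 2000 bp, and the names of these lists carry the numbers 30 and 2000. Another minimum run and a larger maximum gap than stated may thus have been used there. Peak starts are printed 1-based.

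Genes came from Ensembl release 115 on the same assembly, without transposable elements, and sequence from RefSeq. Overlaps, motif counts and repeated 75-base windows were computed with Python 3.11.15, NumPy 2.4.6 and Biopython 1.88, and the counting steps were tested on simulated data. GAGAG was counted on both strands without overlap. Hsp67Bb, Hsc70Cb and Hop were matched through older symbols. The genes, lists and rules were chosen with earlier results of these data known. The genes named are the 10 members, listed chaperone genes with a GAF peak within 2 kb, and neighbours of member peaks; DnaJ-1 was named after its values were seen. Samples were grouped by the labels, but no test was possible on pooled lists. The lists hold no counts, so depth and precision per peak are unknown.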

Additional observations from a re-analysis of the deposited data

How the results depend on the processing

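Of 33 alternatives over 9 results, 26 left the value close to the one reported, a count within 1.5 times or a mean within 1 SD, and 7 moved it further. Restricting to peaks of at least 400 bp gave 3 genes with a mitotic GAF peak and 3 with a retained one, in place of 5 each. Restricting to peaks with at most 10% of repeated windows, an alternative chosen after seeing the data as was the protein-coding background, gave 4 genes with an interphase GAF peak in place of 8, and 1 gene each with a mitotic and with a retained peak. The mean GAGAG number in the 8 interphase peaks was 5.0, and was 2.5 on one strand and 7.38 with overlapping matches. Windows of 0, 1 and 5 kb, reciprocal overlap of 50%, other promoter definitions and the deposited lists kept the counts within 1.5 times, although peaks on the gene body alone left 6 genes each with an interphase GAF peak and a mitotic H4K8ac peak, in place of 8. On protein-coding genes alone, the background was 4.58% and 11.5% for GAF at the promoter in mitosis and interphase, and 42.6% and 42.4% for H4K8ac.

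No paired analysis was possible because each list pools its replicates, and for the same reason leaving out a replicate was not run. The lists hold no signal, so peaks close to the threshold cannot be recognised, and a peak in one list with none in the other does not give the size of the difference in signal. Peaks at Hsp70Aa, Hsp70Ab and Hsp70Bb lie mostly in sequence shared between copies, those at Hsp70Ba less so.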

Other observations

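Of the 27 constitutive chaperone genes, which serve protein folding without stress, 2 had a mitotic GAF peak at the promoter and 4 an interphase one, against 4.03% and 10% of all genes. An H4K8ac peak lay at the promoter of 18 in mitosis and 18 in interphase, against 36.7% and 36.2% of all genes. Hsc70-3, the endoplasmic reticulum Hsp70 (BiP), had promoter GAF peaks of 200 bp in mitosis and 800 bp in interphase, with 3 and 8 GAGAG matches. A further interphase peak of 850 bp with 6 matches lay on another of its TSSs. The mitotic partner of that peak was 100 bp long and lay 335 bp from the nearest TSS. The J-domain gene mrj had promoter peaks of 300 bp in mitosis and 650 bp in interphase. Cdc37, an Hsp90 co-chaperone, had peaks of 500 and 950 bp, with 7 and 9 matches, whose nearest TSS lay 441 bp from the mitotic and 241 bp from the interphase peak. Trap1, the mitochondrial Hsp90, had 2 retained peaks more than 3 kb from its TSS and a 100 bp interphase peak on it. Hsc70Cb (Hsp110) had a retained peak of 250 bp in mitosis and 800 bp in interphase within the gene. Interphase GAF peaks alone lay on the TSS of the J-domain gene Droj2 (250 bp, 2 matches) and 2142 bp or more from the TSS of l(2)efl, a small heat shock protein gene, and of the chaperonin subunit genes CCT1 and CCT7. CCT2 lay near a mitotic GAF peak of 400 bp with 0 GAGAG matches and no interphase partner.

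At Hsp22 and Hsp70Aa the interphase GAF peak met an interphase H4K8ac peak end to end without sharing a base. This was so for 2 of the 8 interphase GAF peaks of the heat shock genes and for 45 of all 4970 (0.905%), while 3 of 8 and 1146 of 4970 (23.1%) overlapped one. None of the 8 met a mitotic H4K8ac peak in this way. All 75-base windows of the Hsp70Aa H4K8ac peak occur elsewhere in the genome. At the near-identical Hsp70Ab the GAF and H4K8ac peaks overlapped by 50 bp, the width of 1 bin. The pattern was noticed in the data and was not tested.

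Hsp26 and lncRNA:Hsromega were alike in that an interphase GAF peak of 700 bp on the promoter had no partner in the mitotic list while the deposited retained list had a peak there. Peaks of that length were retained in 80.4% of cases over the whole list. The signal behind these calls was not analysed here.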
